A study of Homo sapiens with 8 samples.

Results

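The 10 genes described here encode proteins of the nuclear lamina and inner nuclear membrane (LMNB1, LMNB2, LMNA, LBR, TMPO, EMD, SUN1 and SUN2) and 2 chromatin proteins of the high mobility group box family (HMGB1 and HMGB2). They were chosen by name, as genes linked to the nuclear envelope and to cellular senescence, with earlier results of these data known. Each symbol matched 1 Ensembl gene among the 58302 genes listed. All 10 passed the filter on low values that left 13899 genes for testing. The lamina is a meshwork of A-type lamins (from LMNA) and B-type lamins (from LMNB1 and LMNB2) under the inner nuclear membrane, where LBR, LAP2 proteins, emerin and the SUN proteins tie it to chromatin and to the cytoskeleton. Loss of lamin B1 and of HMGB2, and release of HMGB1 from the nucleus, are widely used marks of senescent cells, and LMNB1, TMPO and HMGB2 are also known as genes with higher RNA in cycling cells.

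RNA was sequenced from SK-Hep1, an established human line from a liver tumour, after poly(A) selection. The groups, each 1 library, were SLC29A2-expressing cells given sorafenib and dipyridamole, dipyridamole, sorafenib or the control treatment, and mock control cells given the same 4 treatments. SLC29A2 encodes an equilibrative nucleoside transporter, dipyridamole inhibits nucleoside transporters and phosphodiesterases, and sorafenib is a multikinase inhibitor. The labels give no dose or time, do not say what the control treatment was, and do not say whether the SLC29A2-expressing line is 1 clone. With 1 library per condition, each factor was tested as 4 libraries against 4 (n counts libraries of different conditions), and p-values measure the spread around an additive model, not the spread between repeated cultures.

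The libraries held 14.07 to 16.69 M reads, computed from the deposited FPKM (fragments counted per gene, scaled to transcript length and library size). The labels held for the introduced gene, with SLC29A2 at 1477 to 3040 FPKM in SLC29A2 cells against 7.11 to 7.81 FPKM in control cells. Of the markers used to check the line, all 5 mesenchymal genes were measured at a mean of at least 1 FPKM, against 1 of 6 hepatocyte, 1 of 7 endothelial, 1 of 5 leukocyte and 3 of 5 epithelial genes. The hepatocyte gene APOB was listed at 0 in every library, and the endothelial sum was at most 5.42 FPKM. Both dipyridamole-treated libraries of control cells stood apart, with 2.48% and 2.68% of reads in non-coding genes against 1.60% to 1.93% in the others, so results are also given without them. They differed from each other in mitochondrial reads, at 5.74% with dipyridamole alone and 1.88% with both drugs, against 2.25% to 4.54% in the others. Member genes took 0.210% to 0.237% of reads in dipyridamole-treated libraries and 0.304% to 0.339% in the others.

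Promoter windows of 3 genes that fell with dipyridamole and of LMNA, which did not pass the test, are printed as examples. RefSeq promoter windows (GRCh38.p14, 250 bases before to 50 after a gene's start) were found for 8 of the 10 members. SUN1 and HMGB2 had none. The windows shown are LMNB1 at chr5:126776886-126777185 (plus strand), TMPO at chr12:98515323-98515622 (plus strand), HMGB1 at chr13:30465887-30466186 (minus strand) and LMNA at chr1:156082323-156082622 (plus strand). Each reads 5′ to 3′ along the gene, with capitals on matches, on either strand, to a CCAAT box (CCAAT or its complement ATTGG), a CHR element (TTTGAA) or an E2F element (TTTCCCGC, TTTGGCGC, TTTCGCGC or TTTGGCGG).
LMNB1: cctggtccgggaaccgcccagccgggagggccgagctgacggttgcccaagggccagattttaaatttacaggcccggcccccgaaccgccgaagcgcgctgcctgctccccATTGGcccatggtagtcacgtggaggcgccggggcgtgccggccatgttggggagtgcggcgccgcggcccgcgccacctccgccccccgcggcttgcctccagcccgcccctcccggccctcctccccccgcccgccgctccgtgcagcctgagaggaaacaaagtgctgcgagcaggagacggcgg
TMPO: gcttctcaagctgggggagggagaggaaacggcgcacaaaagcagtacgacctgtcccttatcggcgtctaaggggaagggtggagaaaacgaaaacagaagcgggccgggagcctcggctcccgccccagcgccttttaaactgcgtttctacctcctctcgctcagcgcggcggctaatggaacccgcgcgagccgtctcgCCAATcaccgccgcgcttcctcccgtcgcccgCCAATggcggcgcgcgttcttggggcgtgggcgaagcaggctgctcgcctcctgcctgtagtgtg
HMGB1: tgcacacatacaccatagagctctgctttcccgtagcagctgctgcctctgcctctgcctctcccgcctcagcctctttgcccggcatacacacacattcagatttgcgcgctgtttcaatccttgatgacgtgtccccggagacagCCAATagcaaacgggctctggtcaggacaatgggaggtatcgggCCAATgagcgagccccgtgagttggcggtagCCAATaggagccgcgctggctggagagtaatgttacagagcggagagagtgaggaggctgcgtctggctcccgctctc
LMNA: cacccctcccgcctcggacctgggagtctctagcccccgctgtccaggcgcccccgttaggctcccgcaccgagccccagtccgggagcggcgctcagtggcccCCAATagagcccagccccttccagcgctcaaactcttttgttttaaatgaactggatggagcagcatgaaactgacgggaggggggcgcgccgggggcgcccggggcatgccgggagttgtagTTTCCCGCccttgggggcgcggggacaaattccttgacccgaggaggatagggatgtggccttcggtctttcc
HMGB1 carried 3 CCAAT boxes in this window, TMPO 2, and LMNB1 and LMNA 1 each, LMNB1 on the opposite strand. Every window printed holds a CCAAT box, but not every window of a member does. The other LMNB1 window and the LBR window held none of the marked motifs. The LMNB2 window and the other LMNA windows held no CCAAT box. LMNA was the only one of the 8 with an E2F match, a motif held by 3.35% of all 35116 promoter windows. Over all windows of a gene, a CCAAT box was found in 4 of the 6 members with a window that fell with dipyridamole (HMGB1, LMNB1, SUN2 and TMPO) and in both others (EMD and LMNA), beside 34.6% of all windows. The CHR letters, described in promoters of mitotic genes, were found in 3 of 6 (HMGB1, LMNB2 and SUN2) and in neither of the others, beside 15.2% of all windows. A GC box (GGGCGG) was found in 5 of 6 and in both others, beside 45% of all windows. Genes with several windows have more chances of a match, and a match is a run of letters, not a bound site.

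**Figure D1:**
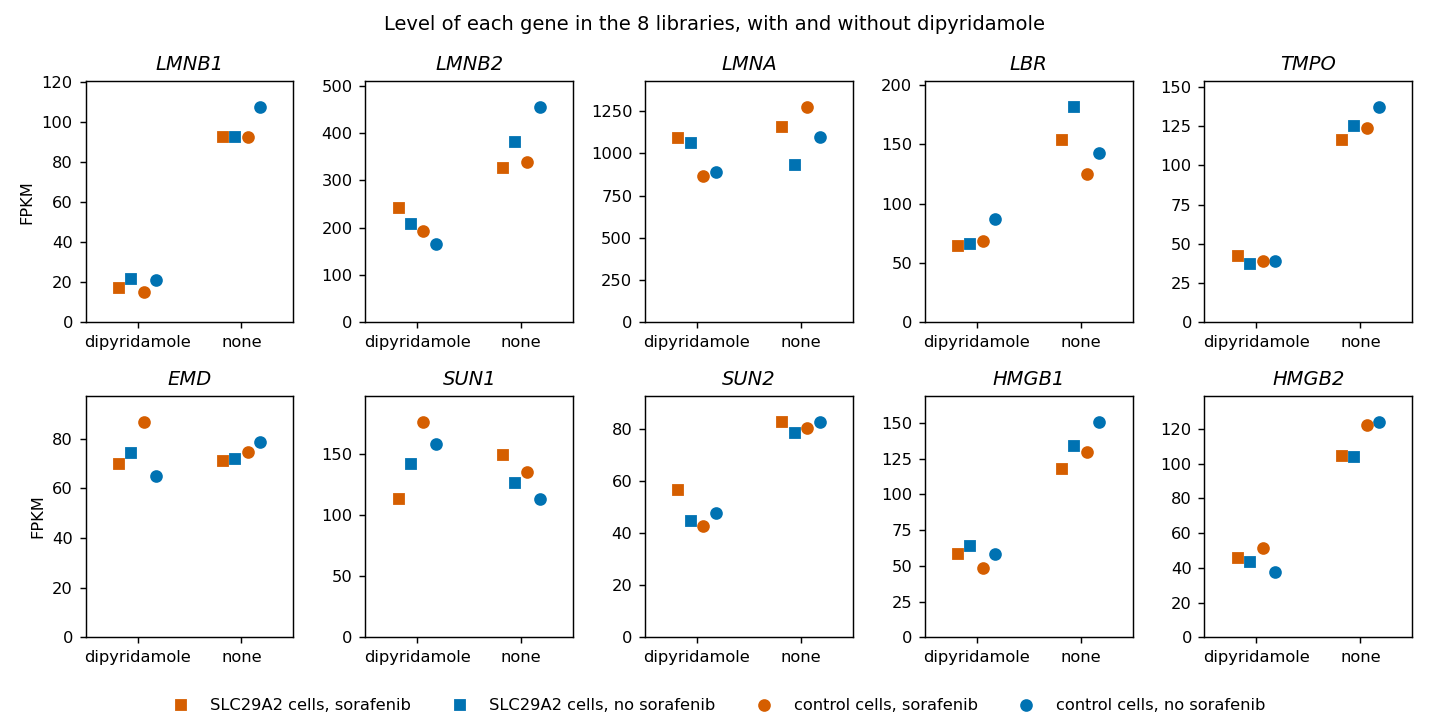
Level of each of the 10 genes in FPKM (y axis, from 0) in the 4 dipyridamole-treated libraries (left) and the 4 others (right), 1 point per library, squares for SLC29A2 cells, circles for control cells and orange for sorafenib. For LMNB1, LMNB2, LBR, TMPO, SUN2, HMGB1 and HMGB2 every dipyridamole point lies below every other point; for LMNA, EMD and SUN1 the 2 sides overlap.

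With dipyridamole, RNA of both B-type lamins, of the membrane genes LBR, TMPO and SUN2 and of both HMGB genes fell, by 1.68-fold to 4.94-fold, while LMNA, EMD and SUN1 did not pass the test. Of the 10 members, 7 fell and 0 rose at an adjusted p under 0.05 (limma on log2(FPKM + 1), Benjamini-Hochberg over 13899 genes). Over all genes tested, 12.6% fell, 17.5% rose and 30.0% changed in either direction. In all 7 the 4 dipyridamole-treated libraries lay below the other 4, as in 11.7% of all genes, and in 0 members above them, as in 13.0%. The median log2 difference was -0.98 over the 10 members and 0.07 over all genes. As the members were chosen with earlier results of these data known, their excess over all genes is description, not a test. In bulk RNA, fewer cells in a given state and less RNA per cell cannot be told apart.

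Among the lamin genes, RNA of the B type fell and that of the A type did not pass the test. LMNB1, which encodes lamin B1, had 17.2 FPKM in SLC29A2 cells given both drugs, 21.6 in SLC29A2 cells given dipyridamole, 15.3 in control cells given both drugs and 21.0 in control cells given dipyridamole, against 92.6 in SLC29A2 cells given sorafenib, 92.5 in SLC29A2 cells given the control treatment, 92.4 in control cells given sorafenib and 107 in control cells given the control treatment. The 2 sets lie far apart, and within each set the libraries are close. The means were 18.8 ± 3.00 FPKM with dipyridamole and 96.2 ± 7.48 FPKM without it (SD, n = 4 each), a log2 difference of -2.31 ± 0.11 (SE, limma adjusted p = 1.5e-05), or 4.94-fold lower with dipyridamole. Only 3 of the 13899 genes had a lower log2 difference, LMNB1 being the 4th from the bottom. Single library pairs gave 4.28-fold to 6.02-fold lower levels with dipyridamole.

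LMNB2, which encodes lamin B2, fell less. It had 242 FPKM in SLC29A2 cells given both drugs, 209 in SLC29A2 cells given dipyridamole, 192 in control cells given both drugs and 166 in control cells given dipyridamole, against 326 in SLC29A2 cells given sorafenib, 381 in SLC29A2 cells given the control treatment, 339 in control cells given sorafenib and 455 in control cells given the control treatment. The groups do not overlap, but the dipyridamole-treated library of SLC29A2 cells with sorafenib came nearest to the range without it. The log2 difference was -0.89 ± 0.15 (SE, n = 4 each, limma adjusted p = 0.00335), 1.85-fold lower with dipyridamole, and it was -0.65 (adjusted p = 0.046) without both dipyridamole-treated libraries of control cells. TIMM13, a neighbour on the same strand at a mean of 67.2 FPKM, shares 257 bases with LMNB2 in the annotation.

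LMNA, which encodes lamins A and C, was the highest of the 10 genes per length in all 8 libraries. It had 1089.7 FPKM in SLC29A2 cells given both drugs, 1061 in SLC29A2 cells given dipyridamole, 866 in control cells given both drugs and 890.2 in control cells given dipyridamole, against 1155 in SLC29A2 cells given sorafenib, 933 in SLC29A2 cells given the control treatment, 1275 in control cells given sorafenib and 1095 in control cells given the control treatment. The groups overlap, the SLC29A2 library given the control treatment lying below both dipyridamole-treated SLC29A2 libraries. The log2 difference was -0.19 with a 95% interval of -0.53 to 0.15 (limma adjusted p = 0.37), and it was 0.05 within SLC29A2 cells against -0.43 within control cells (adjusted p = 0.893 and 0.155). Lamin A and lamin C come from 1 gene by splicing and cannot be told apart in gene-level values.

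RNA of the inner membrane genes TMPO and LBR fell as well. TMPO, which encodes the LAP2 proteins, had 42.0 FPKM in SLC29A2 cells given both drugs, 37.0 in SLC29A2 cells given dipyridamole, 38.8 in control cells given both drugs and 39.3 in control cells given dipyridamole, against 116 in SLC29A2 cells given sorafenib, 125 in SLC29A2 cells given the control treatment, 124 in control cells given sorafenib and 137 in control cells given the control treatment. The 4 dipyridamole values are nearly level with each other. This was a log2 difference of -1.65 ± 0.10 (SE, n = 4 each, limma adjusted p = 4.1e-05), 3.14-fold lower with dipyridamole and the 57th from the bottom of all genes. LAP2 isoforms are not separated at the gene level, and TMPO-AS1, an antisense gene that overlaps TMPO, averaged 1.28 FPKM.

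LBR, the lamin B receptor, which also acts as a sterol reductase and anchors heterochromatin, had 64.0 FPKM in SLC29A2 cells given both drugs, 66.2 in SLC29A2 cells given dipyridamole, 68.2 in control cells given both drugs and 86.6 in control cells given dipyridamole, against 154 in SLC29A2 cells given sorafenib, 181 in SLC29A2 cells given the control treatment, 125 in control cells given sorafenib and 143 in control cells given the control treatment. The spread was wider than for TMPO, with SLC29A2 cells lower than control cells under dipyridamole and higher without it. Dipyridamole gave LBR a log2 difference of -1.07 ± 0.13 (SE, n = 4 each, limma adjusted p = 6.5e-04), 2.10-fold lower with dipyridamole. Within SLC29A2 cells it was -1.35 and within control cells -0.79.

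Of the genes for emerin and the SUN proteins, 1 of 3 passed the test. EMD, which encodes emerin, had 69.7 FPKM in SLC29A2 cells given both drugs, 74.3 in SLC29A2 cells given dipyridamole, 86.8 in control cells given both drugs and 64.9 in control cells given dipyridamole, against 71.2 in SLC29A2 cells given sorafenib, 71.7 in SLC29A2 cells given the control treatment, 74.7 in control cells given sorafenib and 78.5 in control cells given the control treatment. These sets overlap throughout, and the 95% interval of the log2 difference ran from -0.26 to 0.24 (limma adjusted p = 0.96). That interval leaves room for a fold between 0.835 and 1.18.

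SUN2, which joins the lamina to nesprins across the envelope, had 56.5 FPKM in SLC29A2 cells given both drugs, 44.5 in SLC29A2 cells given dipyridamole, 42.6 in control cells given both drugs and 47.8 in control cells given dipyridamole, against 82.6 in SLC29A2 cells given sorafenib, 78.3 in SLC29A2 cells given the control treatment, 80.0 in control cells given sorafenib and 82.5 in control cells given the control treatment. The libraries without dipyridamole lie close together and all dipyridamole-treated ones lie below them. SUN2 had a log2 difference of -0.75 ± 0.11 (SE, n = 4 each, limma adjusted p = 0.00149), the smallest of the 7 that passed. GTPBP1, on the opposite strand at a mean of 37.9 FPKM, shares 3575 bases with SUN2 in the annotation. No strand information is stated, so reads in that overlap cannot be assigned. DNAL4, on the same strand at a mean of 9.22 FPKM, shares 15636 bases with SUN2, which strand information would not separate.

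SUN1, its paralog, did not pass the test. It had 113 FPKM in SLC29A2 cells given both drugs, 141 in SLC29A2 cells given dipyridamole, 176 in control cells given both drugs and 158 in control cells given dipyridamole, against 149 in SLC29A2 cells given sorafenib, 126 in SLC29A2 cells given the control treatment, 135 in control cells given sorafenib and 113 in control cells given the control treatment. Both dipyridamole-treated control-cell libraries are above every library without the drug, while the SLC29A2 libraries fall inside or below that range. The log2 difference was 0.16 with a 95% interval of -0.18 to 0.50 (limma adjusted p = 0.448). It was -0.11 within SLC29A2 cells and 0.43 within control cells, and neither passed the test (adjusted p = 0.724 and 0.0655).

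Both HMGB genes fell. HMGB2, a DNA-bending chromatin protein abundant in dividing cells, had 45.7 FPKM in SLC29A2 cells given both drugs, 43.5 in SLC29A2 cells given dipyridamole, 51.2 in control cells given both drugs and 37.6 in control cells given dipyridamole, against 104 in SLC29A2 cells given sorafenib, 104 in SLC29A2 cells given the control treatment, 122 in control cells given sorafenib and 124 in control cells given the control treatment. The highest dipyridamole value is below the lowest of the others by a wide margin. This came to a log2 difference of -1.34 ± 0.12 (SE, n = 4 each, limma adjusted p = 1.2e-04), 2.53-fold lower with dipyridamole.

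HMGB1, which shapes chromatin in the nucleus and signals danger outside the cell, had 58.5 FPKM in SLC29A2 cells given both drugs, 64.1 in SLC29A2 cells given dipyridamole, 48.3 in control cells given both drugs and 58.5 in control cells given dipyridamole, against 118 in SLC29A2 cells given sorafenib, 134 in SLC29A2 cells given the control treatment, 129.6 in control cells given sorafenib and 151 in control cells given the control treatment. Again no library crosses between the sets. HMGB1 had a log2 difference of -1.20 ± 0.11 (SE, n = 4 each, limma adjusted p = 1.3e-04), 2.30-fold lower with dipyridamole. HMGB1 has 48 named processed copies in the annotation, of which 18 were above 0, and together they held at most 4.49% as many reads as HMGB1 in any library.

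Without dipyridamole, EMD was the lowest of the 10 genes in all 4 libraries and SUN2 the next, their ranges (71.2 to 78.5 and 78.3 to 82.6 FPKM) overlapping slightly. With dipyridamole, LMNB1 took the lowest place in all 4 libraries, its highest value (21.6 FPKM) lying under the lowest of any other member (37.0 FPKM, TMPO). TMPO, HMGB2 and SUN2 followed with means of 39.3 ± 2.09, 44.5 ± 5.66 and 47.9 ± 6.16 FPKM (SD, n = 4 each), whose ranges overlap. LMNA and LMNB2 held the first and second place in all 8 libraries.

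**Figure D2:**
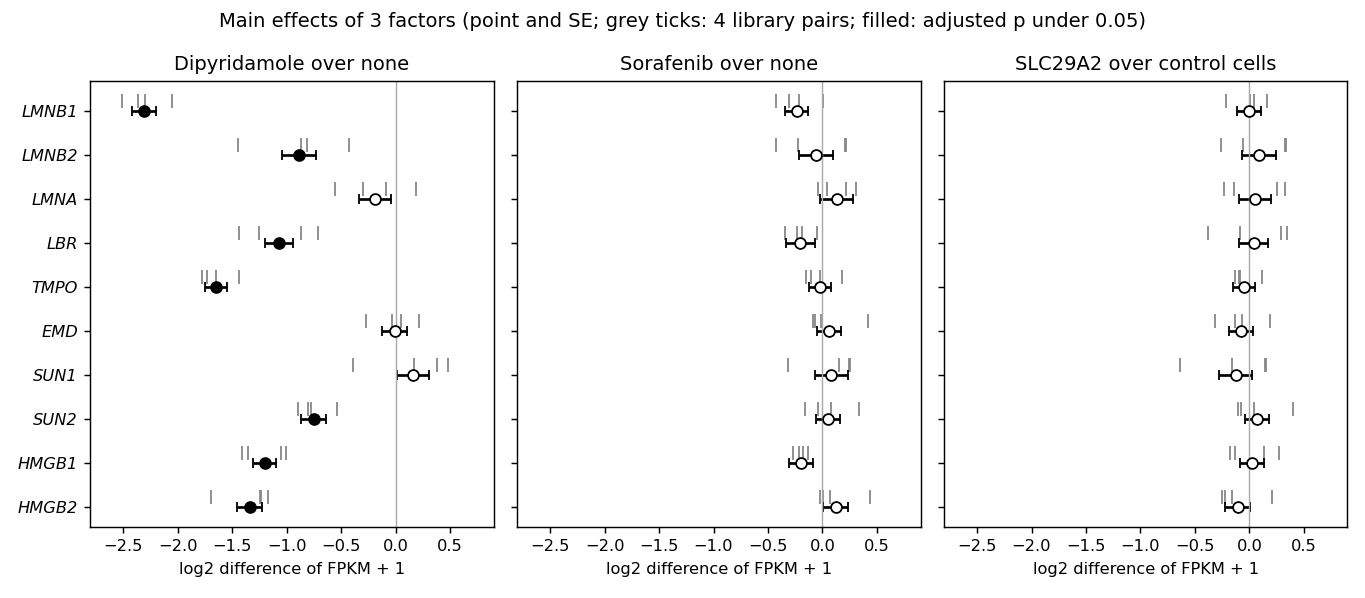
Difference attributed to each factor on the log2(FPKM + 1) scale (x axis) for the 10 genes, with its SE; filled points have an adjusted p under 0.05 and grey ticks are the 4 library pairs that differ in that factor alone. Filled points appear only in the dipyridamole panel, at -2.31 for LMNB1 to -0.75 for SUN2.

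Since the genes of a pair changed unequally, their ratios within a library differed with dipyridamole. The LMNA to LMNB1 ratio of FPKM was 63.2 in SLC29A2 cells given both drugs, 49.1 in SLC29A2 cells given dipyridamole, 56.4 in control cells given both drugs and 42.4 in control cells given dipyridamole, against 12.5 in SLC29A2 cells given sorafenib, 10.1 in SLC29A2 cells given the control treatment, 13.8 in control cells given sorafenib and 10.2 in control cells given the control treatment. In each pair of libraries that differ in sorafenib alone, the sorafenib one had the higher ratio. The LMNB2 to LMNB1 ratio ran from 7.93 to 14.0 with dipyridamole and from 3.52 to 4.24 without it. The SUN1 to SUN2 ratio was 2.0 to 4.13 with dipyridamole and 1.37 to 1.80 without it. A ratio shows that the change was unequal and needs no scaling between libraries.

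Dipyridamole-treated libraries also had higher LMNA to LMNB2 ratios (4.50 to 5.35 against 2.40 to 3.76) and LMNA to LBR ratios (10.3 to 17.0 against 5.15 to 10.2). The HMGB1 to HMGB2 ratio overlapped, at 0.943 to 1.56 with dipyridamole and 1.06 to 1.28 without it. Each of the first 5 ratios gave p = 0.0286 in a two-sided exact permutation test of 4 libraries against 4, the smallest p that 70 arrangements allow, and 0.0343 after Benjamini-Hochberg adjustment over the 6 ratios tested. The same exact test gave p = 0.4 for HMGB1 to HMGB2. It shuffles all 8 libraries freely and ignores that they form 4 pairs matched on cell type and sorafenib. A test within pairs, which was not run, could not reach so low a p. In each of the 5 the denominator is a gene that itself fell without overlap, so these p-values are not separate evidence beside the calls above.

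**Figure D3:**
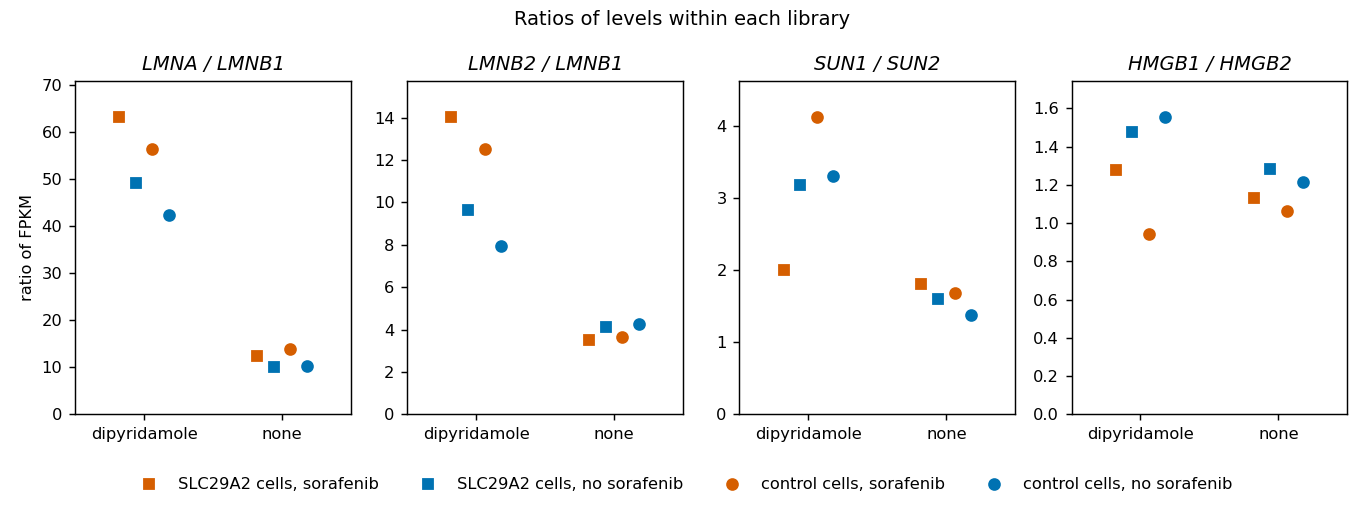
Ratio of FPKM within each library (y axis, from 0) for 4 gene pairs, with dipyridamole left and without it right, 1 point per library. The LMNA to LMNB1 points sit at 42.4 to 63.2 with dipyridamole and 10.1 to 13.8 without it, while the HMGB1 to HMGB2 points overlap.

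Sorafenib gave no member a passed test. Of the 10 genes, 0 passed in limma, 0 reached an unadjusted p under 0.05, and 0 separated the 4 sorafenib libraries from the other 4. Over all genes 8.11% passed (5.94% higher and 2.17% lower) and 26.6% reached an unadjusted p under 0.05, and 2.14% lay below and 5.83% above without overlap. LMNB1 had the lowest adjusted p, averaging 54.4 FPKM with sorafenib and 60.6 FPKM without it, with a log2 difference of -0.24 ± 0.11 (SE, n = 4 each, limma adjusted p = 0.2) and a 95% interval of -0.48 to 0.01. It was lower in 3 of 4 pairs. LBR and HMGB1 were lower in all 4 pairs, by 0.20 each on the log2 scale, with intervals of -0.50 to 0.10 and -0.44 to 0.04. In a model with every pairwise interaction, LMNB1 and HMGB1 passed (limma adjusted p = 0.0297 and 0.0488). That model fits nearly as many terms as there are libraries. In it 4839 of 13899 genes passed for sorafenib, so 2 of 10 members is no excess over all genes.

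For the other 7 members the sorafenib intervals lay within -0.41 and 0.47, so changes smaller than this could not be told from none with these libraries. LMNA averaged 1096 FPKM with sorafenib and 995 FPKM without it, a log2 difference of 0.13. Sorafenib added to dipyridamole gave HMGB2 51.2 FPKM in control cells given both drugs against 37.6 FPKM with dipyridamole alone, but 45.7 against 43.5 FPKM in SLC29A2 cells. The control-cell difference of HMGB2 was 0.44 on the log2(FPKM + 1) scale and rests on single libraries. Size factors, an alternative scaling not applied to these values, were 1.21 for control cells given both drugs and 1.03 for control cells given dipyridamole. In the same pair LMNB1 was lower, at 15.3 FPKM with both drugs against 21.0 FPKM with dipyridamole alone.

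Ectopic SLC29A2 gave no member a passed test either. Of the 10 genes 0 passed, with limma adjusted p of 0.965 or more, beside 0.00719% of all genes (SLC29A2 itself). None of them reached an unadjusted p under 0.05, beside 3.93% of all genes. The log2 differences of SLC29A2 cells over control cells ran from -0.13 (SUN1) to 0.09 (LMNB2), and 0 members separated the 4 SLC29A2 libraries from the 4 control-cell libraries, beside 0.820% of all genes below and 0.130% above without overlap. LMNB1 averaged 56.0 FPKM in SLC29A2 cells and 59.0 FPKM in control cells, with a 95% interval of the log2 difference of -0.25 to 0.24.

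Whether the dipyridamole response depended on the other factors was tested by interaction terms. With each term added alone over all 8 libraries, 0 of 10 members passed for any of them. Some members passed under other models, which are given with the alternatives at the end. For cell type and dipyridamole 0% of all genes passed (0 genes in limma and 19.8% at an unadjusted p under 0.05), and 3 members had an unadjusted p under 0.05. LBR was lower under dipyridamole by 0.56 more on the log2 scale in SLC29A2 cells than in control cells (interaction -0.56 ± 0.16, SE, limma adjusted p = 0.147). SUN1 had an interaction of -0.54 ± 0.23 (adjusted p = 0.243) and HMGB1 one of 0.35 ± 0.15 (adjusted p = 0.245). For sorafenib and dipyridamole, 0.0863% of genes passed and 13.2% had an unadjusted p under 0.05, against 0 and 0 of the members, whose adjusted p was at least 0.423. For cell type and sorafenib, 0 genes passed and 0.719% had an unadjusted p under 0.05, again with 0 members.

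Genes whose RNA most resembled LMNB1 over the 8 libraries, by Pearson r of log2(FPKM + 1) among all genes tested, were KIF20A (0.997), RAD21 (0.995), BUB1B (0.995), RCC2 (0.995) and CDCA3 (0.994). KIF20A is a mitotic kinesin, RAD21 a cohesin subunit and BUB1B a spindle checkpoint kinase. HMGB2 was most like DEK (0.993), a chromatin protein, RBBP7 (0.989), a histone chaperone, PPP1CC (0.987), AURKB (0.987), a mitotic kinase, and DLD (0.986). LMNA resembled CAPN1 (0.953), MIR4442 (0.939), CCDC85C (0.933), CDC42 (0.925) and LASP1 (0.924) less closely, and MIR4442 was listed at 0 to 6.69 FPKM. Among the members, LMNB1 was closest to HMGB1 (0.991) and TMPO (0.988). These values describe 8 libraries that share the dipyridamole split, which alone can set such an r.

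The genes around the lamina were counted from lists of related functions, whose counts stand beside 12.6% of all genes that fell and 17.5% that rose with dipyridamole. These lists too were chosen with earlier results of these data known, so their counts are description. Of 5 lamin-processing enzymes, which trim and methylate the tails of farnesylated lamins, 2 fell with dipyridamole and 0 rose. ICMT averaged 19.1 ± 1.54 FPKM with dipyridamole and 32.2 ± 6.62 FPKM without it (SD, n = 4 each), a log2 difference of -0.71, and ZMPSTE24, the prelamin A protease, had -0.67 (limma adjusted p = 0.00702 and 0.0103). ICMT did not pass without both dipyridamole-treated control-cell libraries (adjusted p = 0.0613). The farnesyltransferase subunits FNTA and FNTB had values of 0.22 and -0.25 and did not pass. The median of the list was -0.25, beside 0.07 over all genes.

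Of 18 nuclear envelope partners, 9 fell, beside 12.6% of all genes, and 3 rose, close to the 17.5% of all genes, with a median log2 difference of -0.42. SYNE2, a nesprin that binds SUN proteins, averaged 4.43 ± 1.04 FPKM with dipyridamole and 9.77 ± 0.630 FPKM without it (SD, n = 4 each), a log2 difference of -1.01 (limma adjusted p = 0.00233). NRM (nurim) had -0.94 and TOR1A (torsin A) -0.86. IFFO1, an intermediate-filament family protein of the nucleoplasm, was the highest riser, averaging 10.8 ± 2.60 FPKM with dipyridamole and 4.31 ± 1.63 FPKM without it, a log2 difference of 1.18 (limma adjusted p = 4.9e-04). SYNE1 rose by 0.55 and LEMD2 by 0.43. SYNE1 did not pass without both dipyridamole-treated control-cell libraries (adjusted p = 0.0613), where 11 of the 18 fell and 2 rose.

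Heterochromatin genes fell in 6 of 14 cases and rose in 0, with a median of -0.23. SUV39H1, a histone H3 lysine methyltransferase, averaged 5.89 ± 1.59 FPKM with dipyridamole and 14.4 ± 1.75 FPKM without it (SD, n = 4 each), a log2 difference of -1.18 (limma adjusted p = 0.00125). SUV39H2 had -0.77 and the corepressor TRIM28 -0.74, while the H3K9 methyltransferases SETDB1 (0.26) and EHMT2 (-0.08) did not pass. Leaving out both dipyridamole-treated control-cell libraries, 4 of the 14 fell. TRIM28, CBX1 and CBX5, which are among the 6, did not pass there (limma adjusted p = 0.0756, 0.0727 and 0.0687). The 4 are therefore not all among the 6.

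Of the 8 other high mobility group genes 4 fell and 0 rose, with a median of -0.58. HMGB3, the closest relative of the HMGB members, averaged 11.7 ± 2.11 FPKM with dipyridamole and 41.2 ± 3.11 FPKM without it (SD, n = 4 each), a log2 difference of -1.74 (limma adjusted p = 7.2e-05), beside -1.34 for HMGB2 and -1.20 for HMGB1. The nucleosome-binding HMGN2 had -1.33 and HMGN5 -0.76, the call of HMGN5 being lost without both dipyridamole-treated control-cell libraries (adjusted p = 0.0905). HMGA1, an architectural factor linked to senescence-associated chromatin, had 0.07 and did not pass, but without both of those libraries it rose by 0.46 (adjusted p = 0.0415), beside 4 that fell. Of 3 receptors for HMGB1 only AGER passed the filter, with a log2 difference of -0.44 (limma adjusted p = 0.0563). AGER passed with size factors (-0.53, adjusted p = 0.0162) and with the dipyridamole-treated pair of control cells left out (-0.78, adjusted p = 0.0144), and over its alternatives the adjusted p ran from 0.0024 to 0.732. Of the other receptors, TLR2 was listed at 0 and TLR4 at no more than 3 reads in any library.

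Of 8 regulators of growth arrest 6 were measured, of which 1 rose and 3 fell with dipyridamole. CDKN1A, which encodes the p21 inhibitor of cyclin-dependent kinases, averaged 304 ± 24.8 FPKM with dipyridamole and 215 ± 42.4 FPKM without it (SD, n = 4 each), a log2 difference of 0.52 (limma adjusted p = 0.0139). Its groups overlap, since control cells given both sorafenib and dipyridamole had 333 FPKM and control cells given dipyridamole 273 FPKM, against 275 FPKM in control cells given sorafenib. The call was lost with size factors as the scaling (adjusted p = 0.0727) and without the SLC29A2 library given the control treatment (0.054). CDKN2A, which encodes p16, was listed at 0 in 7 libraries and had 3 reads in the other, and CDKN2B was listed at 0 in all 8. CDKN2C was 3.99-fold lower with dipyridamole (limma adjusted p = 2.3e-04), while the calls of CDKN1B (-0.45) and RB1 (-0.32) were lost in 5 and 8 of the 8 fits that left out 1 library.

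Of 23 secreted factors commonly listed for senescent cells 16 were measured, of which 6 rose, beside 17.5% of all genes, and 2 fell, a share near the 12.6% of all genes. The median was 0.08, beside 0.07 over all genes. CXCL2, a chemokine, averaged 57.8 ± 25.7 FPKM with dipyridamole and 11.8 ± 2.98 FPKM without it (SD, n = 4 each), a log2 difference of 2.07 (limma adjusted p = 0.00193). GDF15, a stress-induced cytokine, had 1.79 and IL1A 1.30, and IL1A lost its call in 5 of 8 fits with 1 library left out. IGFBP3 (-1.12) lost its call in 4 of 8 and ANGPTL4 (-0.42) in 6 of 8. Leaving out 1 library gave 3 to 7 that rose and 0 to 2 that fell, and leaving out the dipyridamole-treated pair of control cells gave 2 and 0.

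All 16 proliferation genes listed fell with dipyridamole, with a median of -1.60, and all 16 fell in every fit with 1 library left out. MKI67, which encodes the Ki-67 antigen, averaged 19.4 ± 4.36 FPKM with dipyridamole and 86.5 ± 14.1 FPKM without it (SD, n = 4 each), a log2 difference of -2.11 (limma adjusted p = 6.2e-05). RRM2, a subunit of ribonucleotide reductase, had -2.68 and TOP2A, the mitotic topoisomerase, -2.02. Without both dipyridamole-treated control-cell libraries 15 of the 16 fell. These genes moved with LMNB1, TMPO and HMGB2, and their part in the members' fall was not tested. The summed level of the 5 epithelial markers moved with dipyridamole too, at 733 to 1075 FPKM with it and 2019 to 2781 FPKM without it, with KRT8 (-1.36) and KRT18 (-1.87) falling and CDH1 and EPCAM under 1 FPKM throughout. KRT19, the fifth of them, averaged 69.3 FPKM with dipyridamole and 49.8 FPKM without it, a log2 difference of 0.57 (limma adjusted p = 0.0954), and it was 1.20 (adjusted p = 0.0071) with the dipyridamole-treated pair of control cells left out. The summed level of the 5 mesenchymal markers was 1024 to 1112 FPKM with dipyridamole and 1244 to 1713 FPKM without it, with VIM (-0.45) and THY1 (-1.23) falling. The call of VIM was lost without that pair (adjusted p = 0.0608). The part of these markers in the members' fall was not tested either.

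With sorafenib, 0 of the lamin-processing or heterochromatin genes passed in limma, while 1 of 5 and 4 of 14 had an unadjusted p under 0.05, shares near the 26.6% of all genes. Of the 18 envelope partners, 3 rose (IFFO1 by 0.65, SYNE3 by 0.62 and SYNE1 by 0.51), beside 5.94% of all genes. Another 2 of the 18 fell (TMEM201 and TOR1AIP1), beside 2.17% of all genes. With size factors as the scaling 0 rose and 2 fell, and with 1 library left out 0 to 1 rose and 0 to 2 fell. HMGA2 averaged 103 ± 39.9 FPKM with sorafenib and 205 ± 12.4 FPKM without it (SD, n = 4 each), a log2 difference of -1.08 (limma adjusted p = 0.0224), a call lost in 3 of 8 fits with 1 library left out. Of the 16 secreted factors measured 4 fell, SERPINB2 (-3.50), ANGPTL4 (-2.47), CXCL8 (-1.83) and IL1B (-1.13), beside 2.17% of all genes. Of the 16 proliferation genes 4 fell, RRM2 (-1.20), UHRF1 (-0.88), E2F1 (-0.61) and MCM3 (-0.51), beside the same 2.17%. With 1 library left out, 3 to 9 secreted factors and 2 to 4 proliferation genes fell, the secreted count being 8 without the control-cell library given the control treatment and 9 without the SLC29A2 library given sorafenib. The proliferation count was 2 without the control-cell library given sorafenib, the control-cell library given dipyridamole or the SLC29A2 library given the control treatment. IL1B lost its call in 4 of these 8 fits, E2F1 in 3 and MCM3 in 7. With the dipyridamole-treated pair of control cells left out these 2 counts were 3 and 2, and 0 envelope partners passed. Between cell types 0 genes of these 8 lists passed in limma and 1 had an unadjusted p under 0.05.

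**Figure D4:**
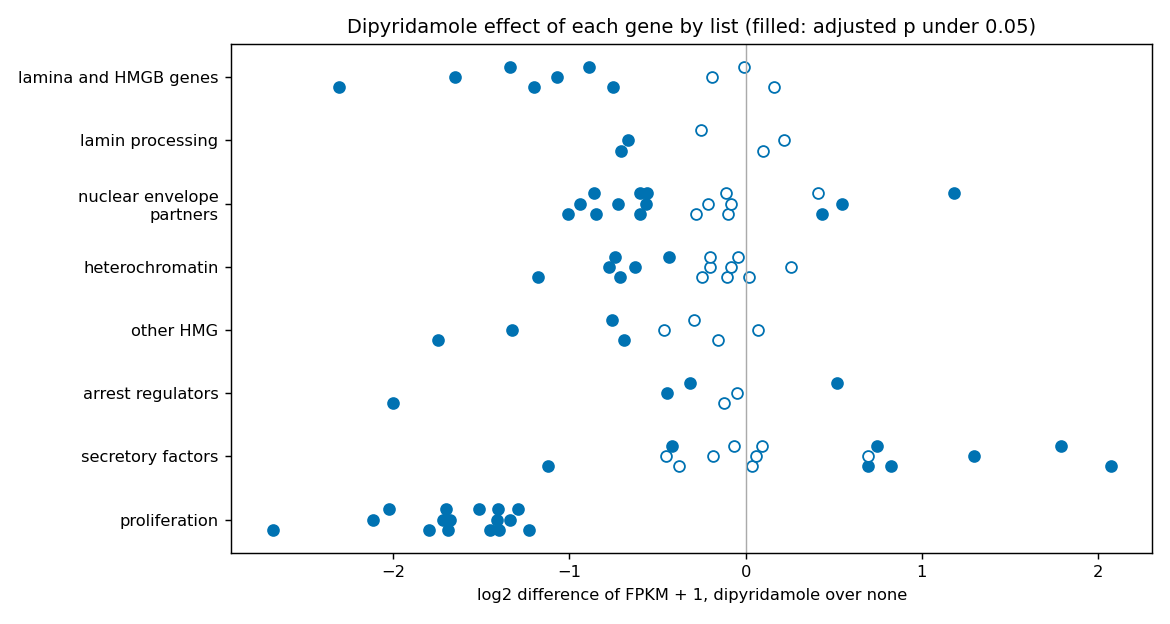
Dipyridamole effect on the log2(FPKM + 1) scale (x axis) for every measured gene of the 10 members and of 7 lists, 1 point per gene; filled points have an adjusted p under 0.05. The 16 proliferation genes lie between -2.68 and -1.23, the members between -2.31 and 0.16, and the secreted factors spread to both sides of 0.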

How the data were processed

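RNA-seq of 8 SK-Hep1 libraries was used. Gene values were deposited by the authors as FPKM per Ensembl gene, 1 table per library. The genome build GRCh38.p12 and the tools edgeR, HTSeq 0.6.1 and TopHat2 2.0 appear, without their roles, in the notes on processing that the submitters gave. Strand handling is not stated. Each table had 58302 genes, and 8 lines naming no gene were left out. Symbols, transcript lengths and overlaps came from GENCODE 29 (58039 identifiers matched), and promoters from RefSeq.

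Genes whose mean over the libraries reached 1 FPKM were tested with limma 3.58.1 (R 4.3.3) on log2(FPKM + 1), which understates folds of low genes. The model had 3 additive terms (dipyridamole, sorafenib, cell type), used a variance trend and was two-sided, with Benjamini-Hochberg adjustment and a threshold of 0.05. Interactions were added 1 at a time. The fit was also run on simulated data with a dipyridamole effect alone, which does not test it where several factors act. Fold changes are on the log2(FPKM + 1) scale, except the single-pair folds of LMNB1, which are plain ratios of FPKM. Mean ± SD is over the 4 libraries of a factor level, which differ in the other factors.

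Read numbers were recovered from the FPKM steps and transcript lengths, and 91.0% to 91.3% of values came out whole within 0.01 read. In a gene of 2 kb, 1 read was worth 0.030 to 0.0355 FPKM. LMNB1 had 354 to 2763 reads. Alternatives were another pseudocount, filter, variance model, scaling by size factors, voom on recovered reads, all pairwise interactions, library pairs as a block, each cell type alone, and leaving out libraries. Named genes were all members and, per list and direction, up to 3 that passed with the highest absolute effect, or values of up to 2 where none passed, with CDKN1A, CDKN2A and MKI67 always. Other genes of a list named as not passing, or as losing a call, were chosen after their values were seen. The members and lists were chosen with earlier results of these data known.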

Additional observations from a re-analysis of the deposited data

How the results depend on the processing

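The 7 members that fell with dipyridamole kept their call in all 19 alternatives tried for each, with adjusted p of 0.046 or less (LMNB2, without both dipyridamole-treated control-cell libraries). Pairing by replicate number could not be done, as each condition has 1 library. With the 4 pairs of libraries that differ in 1 factor alone as a block, a model chosen after seeing the data, 7 members and 3282 genes passed for dipyridamole, 0 members and 1943 genes for sorafenib, and 0 members and 1 gene for cell type. Counts of passing genes moved more. For dipyridamole 4173 genes passed, against 2622 when low genes were kept, 7411 with all pairwise interactions and 2776 in SLC29A2 cells alone. For sorafenib 1127 passed, against 136 with no filter, 4839 with all pairwise interactions, 310 without both dipyridamole-treated control-cell libraries, 662 in control cells alone, 299 in SLC29A2 cells alone and 267 to 913 with 1 library left out. With all pairwise interactions 2 of 10 members passed for sorafenib, beside 4839 of 13899 genes. For the interaction of sorafenib and dipyridamole 12 genes passed, against 0 with a pseudocount of 0.1, with no filter and with no variance trend. It was 19 with size factors, 21 with voom, 855 with all pairwise interactions and 0 to 2 with 1 library left out. Without both dipyridamole-treated control-cell libraries 3490 of 13658 genes and 4 of 10 members passed. In that fit the sorafenib effect under dipyridamole rests on 1 library pair, in SLC29A2 cells. For cell type and dipyridamole 1799 of 13899 genes and 1 of 10 members passed with all pairwise interactions, and 0 to 1 genes with 1 library left out. For cell type and sorafenib 2 genes passed without both dipyridamole-treated control-cell libraries. For cell type, leaving out 1 library gave 1 to 2 genes. The causes were not tested.

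Only effects that had not passed changed sign. Without both dipyridamole-treated control-cell libraries, and equally in SLC29A2 cells alone, dipyridamole gave 0.051 for LMNA, 0.011 for EMD and -0.11 for SUN1. For sorafenib, size factors gave -0.059 (EMD), -0.039 (SUN1) and -0.066 (SUN2), SLC29A2 cells alone gave 0.036 (TMPO), -0.051 (EMD) and -0.039 (SUN1), control cells alone gave -0.10 (SUN2), and leaving out both control-cell libraries gave -0.058 (EMD). For cell type, size factors gave 0.083 (LMNB1), 0.039 (TMPO) and 0.012 (EMD), and leaving out both gave -0.16 (LMNB2), -0.19 (LMNA), 0.15 (SUN1), -0.015 (SUN2) and -0.15 (HMGB1). With 1 library left out, the dipyridamole effect of EMD ran from -0.093 to 0.085. The sorafenib effects ran from -0.19 to 0.095 (LMNB2), -0.091 to 0.023 (TMPO), -0.033 to 0.10 (EMD), -0.029 to 0.25 (SUN1) and -0.040 to 0.13 (SUN2). Cell type effects ran from -0.076 to 0.082 (LMNB1), -0.042 to 0.24 (LMNB2), -0.050 to 0.16 (LMNA), -0.037 to 0.15 (LBR), -0.17 to 0.0049 (EMD), -0.24 to 0.042 (SUN1), -0.025 to 0.12 (SUN2) and -0.038 to 0.074 (HMGB1).

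Size factors moved the median of all genes to -0.01, against 0.07, for dipyridamole and to -0.02, against 0.09, for sorafenib, and the share of passing genes that were higher to 44.6%, against 58.2%, and to 47.4%, against 73.2%. An interaction of cell type and dipyridamole could not be fitted without both control-cell libraries, nor one of sorafenib and dipyridamole within 1 cell type. At each member's lowest read number, counting error alone was 0.0115 (LMNA) to 0.0767 (LMNB1, 354 reads) on the log2 scale. The residual SD as moderated by limma, drawn toward the variance trend, was 0.141 to 0.219, and for LMNB1 0.154.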
